A study of Homo sapiens with 6 samples.

Results

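Of the 26475 m6A enrichment ratios in the authors' deposited table, 533 had a GGACU motif in the 5' untranslated region (5' UTR) as the first motif listed beside them. These 533 ratios are described here, and membership followed the region name in the motif column alone, without use of the ratio. The rule itself was set with earlier results of these data known. Each ratio is the log2 of m6A enrichment in cells depleted of TRMT10A over that in control cells. A value of 0 stands for equal enrichment, and 1 or -1 for a 2-fold difference. The cells were HEK293T, an established human embryonic kidney line, transfected with siRNA labelled TRMT10A KD in one arm and Ctrl KD in the other. Each arm had 1 library of RNA pulled down with an m6A antibody (m6A-IP) and 1 input library. Another pair of libraries mapped RNA crosslinked to TRMT10A (CLIP, 2 replicates). TRMT10A itself had 0 lines in the m6A table, which holds no expression values, so the depletion could not be checked there.

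The table gives no read counts and no values per library, so the depth behind each ratio is unknown. With 1 library per arm there was no replicate check and no test of knockdown against control was possible. Every statement below compares ratios with other ratios of the same pair of arms. Intervals are 95% intervals that cover the counting of ratios only, with Wilson intervals for shares and rank intervals for medians. The gene columns of the table were sorted by accession and the ratio columns by ratio: only 5.62% of listed motifs lay inside the peak printed on their own line. Ratio, motif and a call of common or unique were read together. Gene names were attached only where a set of motif positions matched a single peak. The table does not define common and unique.

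N6-methyladenosine (m6A) is placed on messenger RNA by a writer complex built around METTL3 and METTL14, mostly at the adenosine of GGACU and related motifs. Most m6A of mammalian messenger RNA lies near stop codons and in long internal exons, and a smaller part lies in 5' UTRs, where it has been linked to cap-independent translation. Adenosines next to the cap can carry a related mark, m6Am, which many m6A antibodies also bind. TRMT10A is a methyltransferase known for modifying guanosine in tRNAs.

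The motif and its surroundings are shown for the 12 genes with the largest absolute ratio among the 20 genes named by rule below, since these are the highest and lowest ratios that could be tied to a sequence. Each stretch was read 5' to 3' from GENCODE release 29 transcripts on GRCh38 (hg38), covers 30 bases, and has every copy of the motif in capitals, written with T for U. All 12 lay in exon 1 of their transcript except those of EIF5, CTNS and DDX52, which lay in exon 2. The table and the annotation placed 11 of them in the 5' UTR. For DDX52 the table listed the 5' UTR, while the GENCODE transcript had a 5' UTR of only 44 bases and placed the motif in the coding sequence. The first 6 sequences had ratios above 1, from 2.27 for CDKAL1 to 1.30 for SNX6, and the last 6 had negative ratios, from -0.72 for C18orf21 to -2.72 for ZDHHC3.
CDKAL1, chr6:20534535-20534564, plus strand: ttttctcactttGGACTggtttttacttcc
MPC1, chr6:166382830-166382859, minus strand: gcggaaagcggcGGACTatgtccgaagcaa
TNFAIP3, chr6:137867443-137867472, plus strand: ctgccttgaccaGGACTtgGGACTttgcga
ABTB2, chr11:34357955-34357984, minus strand: ccggctggtcccGGACTcgcgctgcgccct
EIF5, chr14:103334498-103334527, plus strand: ctccgcctcctcGGACTcGGACTcgggttt
SNX6, chr14:34629917-34629946, minus strand: ggacgacggcccGGACTtcctctcagaaga
C18orf21, chr18:35972753-35972782, plus strand: gctgcagcgcggGGACTgcacgacagctgc
EFNB1, chrX:68829087-68829116, plus strand: gcccgggagccaGGACTcggcgacgcgagg
NHS, chrX:17375548-17375577, plus strand: gcacccaaaggaGGACTggctGGACTgatt
CTNS, chr17:3637164-3637193, plus strand: cggggctccgggGGACTgagcagcacgaga
DDX52, chr17:37642246-37642275, minus strand: gaggtgcttcagGGACTGGACTtttttgga
ZDHHC3, chr3:44975995-44976024, minus strand: gtcccgggttggGGACTgcaggggaaggca
Stretches with 2 motifs within the 30 bases were those of TNFAIP3 and EIF5, with ratios of 1.96 and 1.37, and of NHS and DDX52, with ratios of -1.39 and -1.80. Across all 533 ratios, motifs at most 10 bases apart were listed for 7, whose other ratios were 0.75, 0.30 and 0.10. Close pairs thus had both positive and negative ratios.

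Ratios with a 5' UTR motif were shifted to higher enrichment in the knockdown arm relative to ratios with a coding or 3' UTR motif. In the authors' deposited table, the 533 ratios ran from -2.72 to 3.35, with quartiles of -0.27 and 0.80. Their median was 0.23 (interval 0.14 to 0.32), and 326 of them (61.2%) were above 0, against 58.5% of all ratios. The median was 0.10 for the 4079 ratios whose first motif was coding (interval 0.07 to 0.12) and -0.26 for the 1572 with a 3' UTR motif (interval -0.30 to -0.21). The coding and 3' UTR intervals did not overlap that of the 5' UTR ratios. The 20161 ratios with no listed motif had a median of 0.21, inside the 5' UTR interval. The 130 ratios with a motif in a noncoding transcript had a median of 0.02, and their interval, from -0.12 to 0.32, overlapped that of the 5' UTR ratios. The pooled medians mix common and unique ratios, whose shares differed between regions, and the values within each call are given below.

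A 2-fold higher enrichment in the knockdown arm was found for 100 of the 533 ratios (18.8%, interval 15.7 to 22.3), against 16.2% of all ratios in the table. A 2-fold lower enrichment was found for 34 (6.38%, interval 4.60 to 8.78), against 5.79% of all ratios. Both shares were thus near those of the whole table. The difference was clearer among motif-bearing ratios, where 13.0% of ratios with a coding motif and 6.74% with a 3' UTR motif were at least 2-fold higher. Lower ratios followed another order: 6.20% with a coding motif and 13.5% with a 3' UTR motif were at least 2-fold lower. The median over all ratios was 0.17. With each ratio set relative to that median, 73 of the 533 (13.7%) were at least 2-fold higher, against 12.05% of all ratios, and 54 (10.1%) were lower, against 9.13%. Of the 5' UTR ratios past 2-fold, 74.6% were on the higher side as deposited and 57.5% after this centring.

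Read from the other side, and among motif-bearing ratios alone, 5' UTR motifs made up a larger share of the higher ratios. Over the whole table the shares past 2-fold were near those of all ratios, as given above. Of the 6314 motif-bearing ratios, 533 had a 5' UTR motif first. Among the 754 motif-bearing ratios that were at least 2-fold higher, 13.3% had a 5' UTR motif first (interval 11.0 to 15.9). The share was 7.90% among the 5050 within 2-fold (interval 7.19 to 8.68) and 6.67% among the 510 at least 2-fold lower (interval 4.81 to 9.17). For 3' UTR motifs the order was the opposite, with shares of 14.1%, 24.8% and 41.8%. Among common ratios the 5' UTR shares were 16.6%, 8.21% and 6.60% in the same order. Among unique ratios they were 10.6%, 5.76% and 10.0%, the last being 1 of 10 ratios.

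**Figure D1:**
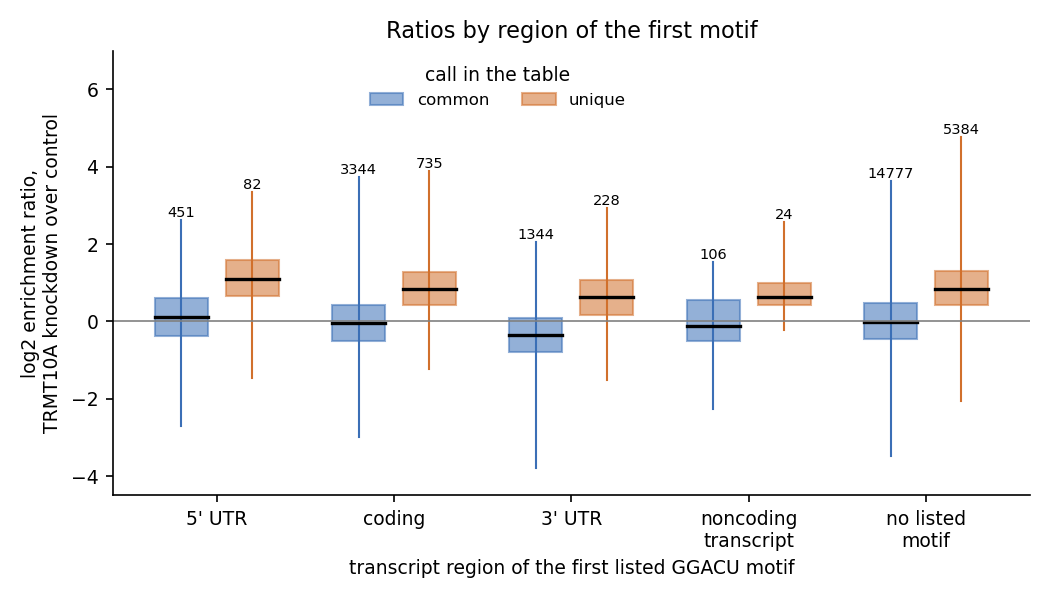
Log2 enrichment ratio, knockdown over control arm (vertical axis), by transcript region of the first listed motif and by the call in the table, with 1 library per arm. Boxes span the quartiles, black lines are medians, vertical lines run from the lowest to the highest ratio and numbers give the ratios in each group. In both calls the 5' UTR median is the highest of the 5 groups, 0.11 for common and 1.09 for unique ratios.

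The call of common or unique went with a larger difference in ratio than motif position or motif count did among the 533 ratios. Of these, 451 were called common and 82 unique (15.4%, interval 12.6 to 18.7). The unique share was 18.0% for coding motifs, 14.5% for 3' UTR motifs, 26.7% for ratios with no motif and 24.4% over all ratios. The 451 common ratios with a 5' UTR motif had a median of 0.11, quartiles of -0.38 and 0.60, and 250 (55.4%) above 0. The 82 unique ratios had a median of 1.09, quartiles of 0.67 and 1.59, and 76 (92.7%) above 0. The quartile ranges of common and unique ratios did not overlap, although the full ranges did. Over the whole table, common ratios had a median of -0.03 with 48.1% above 0. Unique ratios of the whole table had a median of 0.83 with 90.8% above 0. A wide gap between the calls was thus not particular to 5' UTR motifs.

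Among common ratios, 56 of 451 with a 5' UTR motif (12.4%, interval 9.69 to 15.8) were at least 2-fold higher, against 8.55% of all common ratios. The share was 6.91% for coding motifs, 2.90% for 3' UTR motifs and 9.30% for ratios with no motif. At least 2-fold lower were 33 of the 451 (7.32%, interval 5.26 to 10.1), against 7.45% of all common ratios. Common 5' UTR ratios thus exceeded the table's share in the higher direction only. Among unique ratios, 44 of 82 (53.7%, interval 42.9 to 64.0) were at least 2-fold higher, against 40.0% of all unique ratios, and 1 was lower (1.22%), against 0.620%. The median of common ratios was 0.11 (interval 0.02 to 0.19) for 5' UTR motifs, -0.04 for coding motifs and -0.34 for 3' UTR motifs. The order of these 3 regions was the same among unique ratios, with medians of 1.09, 0.84 and 0.63. Set against ratios with no motif, the 5' UTR intervals were higher within each call. For common ratios the interval was -0.02 to 0.01 without a motif, below 0.02 to 0.19, a narrow gap between ends of 0.011 and 0.015. For unique ratios it was 0.82 to 0.86 without a motif, below 0.89 to 1.18.

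Ratios were described by the distance of the first motif from the transcript start. The median within 100 bases minus that beyond 400 bases was 0.23, with an interval (-0.16 to 0.69) that included 0. Listed positions of first motifs in the 5' UTR ran from base 21 to base 1808. Position groups include their upper limit and exclude their lower one. The 161 ratios with a first motif at bases over 100 and up to 200 had the highest median, 0.40 (interval 0.29 to 0.71), with 46 (28.6%, interval 22.2 to 36.0) at least 2-fold higher and 9 (5.59%) lower. At bases over 200 and up to 400, 199 ratios had a median of 0.15 (interval 0.04 to 0.33), with 30 (15.1%) higher and 16 (8.04%) lower. Beyond base 400, 120 ratios had a median of 0.07 (interval -0.12 to 0.22), with 12 (10.0%) higher and 8 (6.67%) lower. With both calls pooled, the interval of the share at 100 to 200 bases lay above the intervals of both later groups, which ended at 20.7% and 16.7%. Among common ratios alone, the intervals at 100 to 200 and 200 to 400 bases overlapped, as given below. The position groups and the 2-fold limit were chosen with earlier results of these data known, so the pooled separation is a description only.

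The 53 ratios with a first motif within 100 bases of the start had a median of 0.29 (interval 0.06 to 0.57). Of these, 12 (22.6%, interval 13.5 to 35.5) were at least 2-fold higher and 1 (1.89%) was lower. This group overlapped in interval with the group at 100 to 200 bases. Only 11 of its motifs lay within 50 bases of the start, the stretch closest to the cap, and their ratios had a median of -0.03, while the other 42 had a median of 0.39. With so few ratios the interval of the former was wide, from -0.24 to 1.84.

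**Figure D2:**
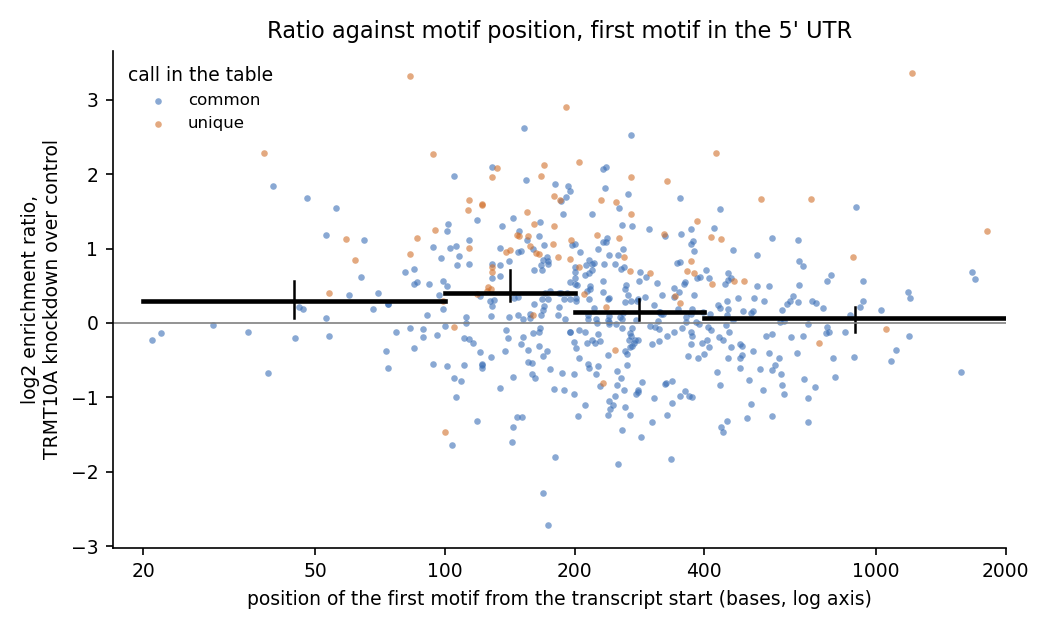
Log2 enrichment ratio (vertical axis) against the position of the first 5' UTR motif in bases from the transcript start (log axis), with 1 point for each of the 533 ratios. Thick black lines are the medians of the 4 position groups, 0.29, 0.40, 0.15 and 0.07 from the start outward, and thin vertical lines are their rank intervals.

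Among common ratios beyond base 100, the medians were 0.23 at 100 to 200 bases (126 ratios), 0.07 at 200 to 400 bases (176 ratios) and -0.02 beyond 400 bases (107 ratios). The shares at least 2-fold higher were 19.8%, 11.4% and 4.67%, with intervals of 13.8 to 27.7, 7.48 to 16.9 and 2.01 to 10.5. The first interval overlapped the second and lay above the third. Nearest to the start, 42 common ratios had a median of 0.19, with 14.3% higher and 0 lower (upper end of the interval 8.38%). Unique ratios had medians of 1.13, 1.12, 0.84 and 1.12 from the start outward over 11, 35, 23 and 13 ratios. The unique call was given to 11 of 53 (20.8%) and 35 of 161 (21.7%) in the nearer groups, then 23 of 199 (11.6%) and 13 of 120 (10.8%). The intervals of the unique shares were 16.1 to 28.7, 7.83 to 16.7 and 6.44 to 17.7 beyond base 100. Those of the common medians were -0.06 to 0.40, 0.06 to 0.40, -0.04 to 0.21 and -0.18 to 0.17 from the start outward. Both sets overlapped between neighbouring groups, only slightly for the unique shares at 100 to 200 and 200 to 400 bases. Overlap does not show that neighbours were alike, and they were not tested against each other.

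**Figure D3:**
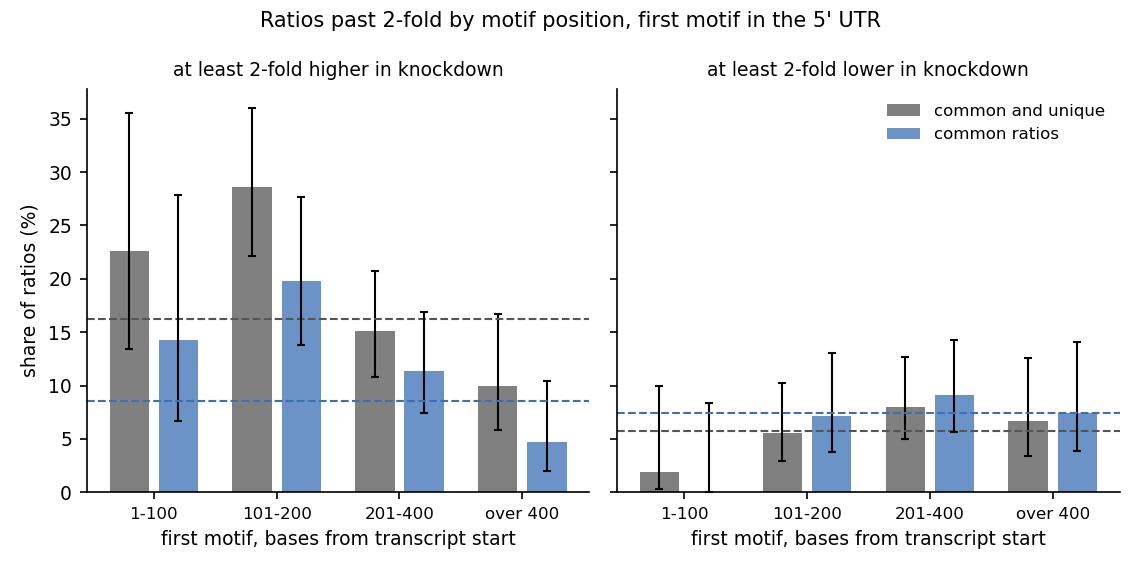
Share of ratios at least 2-fold higher (left) or lower (right) in the knockdown arm (vertical axis, percent) by position of the first 5' UTR motif. Grey bars take all 533 ratios and blue bars the 451 common ones, error bars are 95% Wilson intervals, and dashed lines are the shares over all ratios and all common ratios of the table (16.2% and 8.55% higher, 5.79% and 7.45% lower). The bars for 100 to 200 bases are the highest on the left, 28.6% and 19.8%, and those beyond 400 bases the lowest.

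Spearman's rho between position and ratio was -0.17 over the 533 ratios, -0.14 over the common ones, -0.05 over the unique ones and -0.21 over those with a single motif. These are descriptions over ratios that share the same libraries. Ratios whose first motif was coding were set beside them in the same position groups. Their 11 ratios within 100 bases of the start had a median of 0.70 (interval -0.41 to 1.93), with 5 at least 2-fold higher (45.5%). Farther on, the medians were 0.10 at 100 to 200 bases (139 ratios), 0.25 at 200 to 400 bases (443 ratios) and 0.08 beyond 400 bases (3486 ratios), with 15.8%, 17.2% and 12.3% at least 2-fold higher. At 100 to 200 bases the interval of the coding share ended at 22.8%, which overlaps that of the 5' UTR share. For coding motifs within the first 2000 bases of the transcript, rho was -0.11 over 2929 ratios.

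The ratios were next split by the number of listed motifs. Of the 533 ratios, 440 had 1 listed motif, 79 had 2 and 14 had 3 or more. The median was 0.24 with 1 motif (interval 0.15 to 0.33), 0.18 with 2 (interval -0.06 to 0.37) and 0.37 with 3 or more (interval -0.58 to 1.10). These intervals overlapped, which does not show that the medians were alike, and an order by motif count was not tested. At least 2-fold higher were 84 (19.1%), 13 (16.5%) and 3 ratios, and at least 2-fold lower were 24 (5.45%), 9 (11.4%) and 1. Ratios with 2 or more motifs were 2-fold lower in 10 of 93 cases (10.8%, interval 5.95 to 18.7), against 5.45% with 1 motif (interval 3.69 to 7.99), and these intervals overlapped. Among common ratios the medians were 0.11 with 1 motif and 0.05 with 2 or more, and 6.27% and 11.9% were at least 2-fold lower. The unique share was 16.6% with 1 motif and 8.86% with 2, with overlapping intervals.

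**Figure D4:**
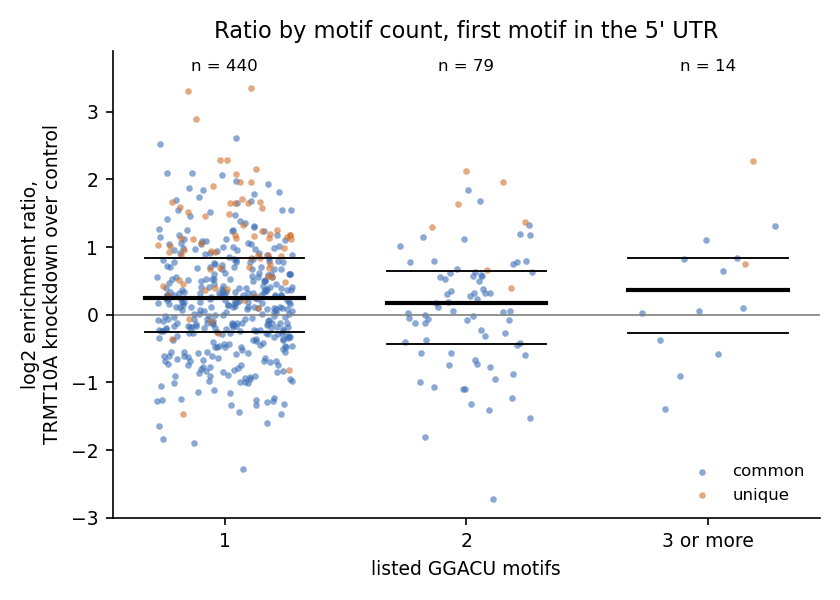
Log2 enrichment ratio (vertical axis) by number of listed motifs for the 533 ratios, with 1 point per ratio spread sideways at random and coloured by the call in the table. Thick lines are medians (0.24, 0.18 and 0.37) and thin lines quartiles, and the 3 groups overlap over most of their range.

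Within position groups, single motifs and pairs of motifs were set side by side. At 100 to 200 bases, the 135 ratios with a single motif had a median of 0.50 (interval 0.33 to 0.83), with 31.9% at least 2-fold higher. The 23 ratios with 2 motifs at the same distance had a median of -0.12 (interval -0.72 to 0.32). These intervals did not overlap, by a narrow gap between ends of 0.323 and 0.330. Among common ratios alone, the intervals at this distance overlapped, from 0.10 to 0.50 over 103 single motifs and from -0.74 to 0.32 over 21 pairs. At 200 to 400 bases the order was turned, with medians of 0.12 for 164 single motifs and 0.45 for 30 pairs. Within 100 bases the medians were 0.29 for 45 single motifs and 0.19 for 7 pairs, and beyond 400 bases 0.11 for 96 and 0.03 for 19. In these other 3 groups the intervals overlapped.

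In the 93 ratios with several motifs, 68 had all their motifs in the 5' UTR and 25 ran on into the coding sequence. The former had a median of 0.08 with 9 at least 2-fold lower (13.2%), and the latter a median of 0.40 with 1 lower. Their intervals overlapped, from -0.08 to 0.35 and from -0.06 to 0.64. The first and second motif were 5 to 273 bases apart, with a median of 59. The 40 ratios with motifs at most 50 bases apart had a median of 0.35, and the 53 with wider spacing had a median of 0.03. Their intervals overlapped, from 0.02 to 0.68 and from -0.38 to 0.35. Of the 9 unique ratios with several motifs, 8 had motifs at most 50 bases apart. Common ratios differed less, with medians of 0.14 over 32 ratios and 0.03 over 52.

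The ends of the range were split by the call. The highest ratio, 3.35, belonged to a unique peak with a single motif at base 1214, and the next, 3.31, to a unique peak with a motif at base 83. Of the 10 highest ratios 8 were unique, and the common ones among them had ratios of 2.61 and 2.53. The lowest ratios were -2.72, with motifs at bases 174 and 226, and -2.28, with a motif at base 169, both common. Of the 10 lowest ratios 9 were common. The unique exception had a ratio of -1.46 with a motif at base 100. Repeated motif entries were frequent: the 533 ratios held 387 distinct entries, and 241 ratios shared theirs with at least 1 other. No ratios shared both entry and value.

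Genes could be attached to 30 of the 93 ratios with several motifs (32.3%), each to a single peak of 30 different genes. Their exact GGACT positions lay in that peak's transcript stretch and in no other peak. When all listed positions were moved in 20 ways, the largest being 40 bases, a mean of 0.6 and at most 2 ratios found a match, so about 2.0% of the joins may be false. For single motifs no such link could be made. Exactly 1 peak fitted the listed position for 81 of 440 ratios, and a shifted position for a mean of 98.05. Ratios that fitted more than 1 peak were left out of both counts. A single fit was thus no rarer with shifted positions. The 30 joined ratios had a median of 0.23 and quartiles of -0.07 and 0.65. Of these 30, 6 were at least 2-fold higher and 4 lower (13.3%), against 16.2% and 5.79% of all ratios. The 63 ratios left without a gene had a median of 0.11. Of the 6 unique joined ratios 5 were at least 2-fold higher, as was 1 of the 24 common ones.

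The 20 named genes are those with the 10 highest and 10 lowest joined ratios, so that their spread follows from this choice, and they are given by known role for reading only. Of those with roles in RNA and translation, in the authors' deposited table CDKAL1, a methylthiotransferase that modifies tRNA-Lys, had the highest joined ratio, 2.27, called unique. Its 3 motifs, at bases 94, 120 and 137, lay in a peak from base 11 to 160 of the transcript. The motif shown above lay 77 bases before the start codon, and 32% of the 25 bases around it were G or C, the lowest value of the 30 genes. EIF5, which promotes GTP hydrolysis during start codon recognition, had 1.37 with motifs at bases 384 and 390 of a 5' UTR of 676 bases, called unique. TROVE2, the Ro autoantigen that binds Y RNAs, was close to equal enrichment at -0.05. DDX52, an RNA helicase whose yeast counterpart acts in ribosome assembly, had -1.80 with motifs at bases 180 and 185, and is the gene whose annotated region differed from the table.

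Among the named genes for carriers, cilia and membrane proteins, MPC1, part of the carrier that brings pyruvate into mitochondria, had 2.13 with motifs at bases 170 and 197, called unique. SNX6, a sorting nexin of endosome to Golgi transport, had 1.30 with motifs at bases 179 and 204, also unique. SLC10A3, a member of a solute carrier family, had 0.67 and was the unique joined peak that did not reach 2-fold. IFT57, a subunit of the intraflagellar transport machinery of cilia, had 0.57, with its second motif in the coding sequence. Negative values were those of CTNS, the lysosomal cystine exporter, at -1.40 with motifs at bases 437 and 495, and ZDHHC3, a Golgi palmitoyltransferase, at -2.72 with motifs at bases 174 and 226. The ZDHHC3 peak ran from base 91 to 240, and its first motif lay 104 bases before the start codon, against 315 bases for MPC1 and 322 for SNX6.

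Among the named genes for signalling and the cytoskeleton, TNFAIP3 encodes A20, an ubiquitin-editing enzyme that restrains NF-kappaB signalling, and had 1.96 with motifs at bases 271 and 278, called unique. PPP2R5B, a regulatory subunit of protein phosphatase 2A, had 0.68. EFNB1, an ephrin ligand of Eph receptors, had -0.99, just inside the 2-fold limit, with its first motif 678 bases before the start codon. NHS, an actin regulator named for Nance-Horan syndrome, had -1.39 with 4 motifs, at bases 144, 153, 221 and 245.

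Of the remaining named genes, FUT8, which adds core fucose to N-glycans, had 0.59 with a motif 32 bases before the start codon and another in the coding sequence. NDST1, an enzyme of heparan sulfate synthesis, had -0.08. BAG6, a chaperone of hydrophobic proteins, had -0.06, and the ankyrin repeat protein ANKRA2 had -0.23. ABTB2, an ankyrin repeat and BTB domain protein, was the only common joined peak above 2-fold, at 1.84, with motifs at bases 40 and 127. C18orf21 had -0.72. The other 10 joined genes lay between -0.02 for ARHGAP21 and 0.53 for FEM1C.

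**Figure D5:**
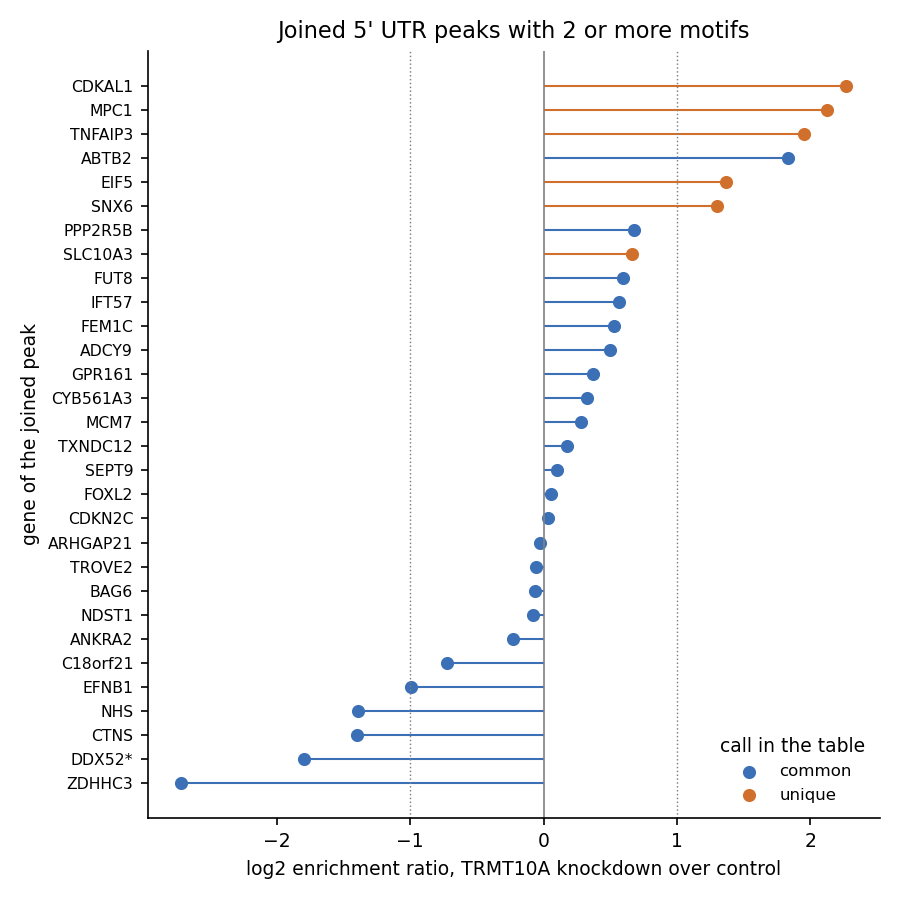
Log2 enrichment ratio, knockdown over control arm (horizontal axis), for the 30 peaks with several motifs that could be tied to a gene (vertical axis), coloured by the call in the table. Dotted lines mark 2-fold, and the asterisk marks DDX52, whose annotated region differs. The 6 ratios past 2-fold on the right are unique except ABTB2, and the 4 on the left are common.

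The joined genes were also read by position. The 11 with a first motif within 200 bases of the start had a median of -0.06 and included both the highest and the lowest ratio, with 4 at least 2-fold higher (36.4%) and 3 lower. The 19 with a first motif farther on had a median of 0.33, with 2 higher (10.5%) and 1 lower. Joined ratios are part of the ratios with several motifs described above, so that these values are no separate evidence on position. Joined peaks were 114 to 399 bases wide with a median of 209, and the median distance from first motif to start codon was 195 bases.

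The places of 5' UTR motifs could also be read from the gene columns, without any ratio. A search for GGACT in the 25754 peaks with a matching GENCODE transcript (97.3%) found 502 peaks, on 482 genes, whose first motif lay in the 5' UTR. This was close in number to the 533 listed ratios. The search assumed that the listed peak coordinates hold on GENCODE transcripts. Exact listed positions could be matched for only 30 of the 93 ratios with several motifs, so most single placements are unchecked. The base composition and CLIP genes below rest on the same search. Of these peaks, 417 held 1 motif and 85 held more. Their positions fell into the 4 groups from the start outward in shares of 9.96%, 27.9%, 38.6% and 23.5%, and the listed ratios in shares of 9.94%, 30.2%, 37.3% and 22.5%. The median distance to the start codon was 139 bases, and 205 motifs (40.8%) lay within 100 bases before it. The 5' UTR holding the motif had a median length of 416.5 bases.

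The surroundings of 5' UTR motifs differed in base composition from those of other motifs. In the 25 bases around the first motif, with the motif itself left out, the median content of G and C was 68% (quartiles 56% and 72%) in 5' UTR peaks. It was 56% in coding peaks and 56% in 3' UTR peaks, each with an upper quartile of 64%. G was the base just before the motif in 37.1% of 5' UTR peaks, 23.1% of coding peaks and 30.1% of 3' UTR peaks. C stood there in 20.9%, 10.9% and 5.45%. In the sequences above, the joined genes with negative ratios and those with positive ratios both included GC-rich stretches, such as ABTB2 and EFNB1 with 84% each. Whether base composition bears on the ratios was not tested, since most 5' UTR ratios have no gene.

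Few genes with a 5' UTR motif peak were listed as bound by TRMT10A in CLIP. A gene with at least 1 cluster in both replicates was found for 8 of the 482 genes (1.66%, interval 0.843 to 3.24), against 208 of all 9278 genes of the m6A table (2.24%). The 5' UTR share thus included that of the whole table in its interval. ADAR, which converts adenosine to inosine in double-stranded RNA, and ATP5F1A, a subunit of the mitochondrial ATP synthase, had 5 clusters in each replicate. MCM7, a subunit of the replicative helicase, had 3 and 2. ACLY, which makes acetyl-CoA from citrate, and HCFC1, a chromatin cofactor of the cell cycle, had 2 in each. LUC7L2, TSHZ2 and XPO5 had 1 in each. Only MCM7 was also among the joined genes, with a common ratio of 0.28. The clusters were counted per gene and their place relative to the 5' UTR motif was not compared.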

How the data were processed

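Values in the m6A table are log2 ratios of enrichment (knockdown arm over control arm) as the authors deposited them, each with a common or unique call and GGACU motif positions, per the file headers. The CLIP tables hold the authors' deposited counts of clusters per gene, not normalized. The submitters' processing notes name hg38, TopHat2 and Cuffdiff without a role. Neither the peak caller nor the normalization of the ratio is given in the sources used here.

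Groups came from the sample titles. Shares carry 95% Wilson intervals, and medians carry order-statistic intervals. Differences of medians carry a wider range, taken between opposite ends of those intervals. Listed positions were matched to GENCODE release 29 transcripts, where the listed position equals the first base of GGACT plus 3 (30 of 93 ratios joined at this offset, at most 1 at the others). Named genes are the 10 highest and 10 lowest joined ratios with several motifs. The 2-fold limit, position groups, lists and members were chosen with earlier results of these data known. Code was tested on simulated data. Alternatives covered region rules, common ratios, centring, threshold and position groups. Python 3.11.15, pandas 2.3.3, numpy 2.4.6, scipy 1.17.1 and matplotlib 3.10.9 were used.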

Additional observations from a re-analysis of the deposited data

How the results depend on the processing

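Of 23 alternative settings, 4 took any listed 5' UTR motif and selected the same 533 ratios, so that they could not change a value. Of the other 19, 13 left the value within its interval and 6 moved it. None reversed a direction, which a share cannot do. The 13 include the joined median with single-motif matches added, 0.33 over 111 ratios. Such matches could not be relied on, so this setting is no check. For differences of medians, the wider range described below stood in for the interval. The median of the 5' UTR ratios was 0.11 among common ratios, against 0.23. The share at least 2-fold higher was 13.7% after centring on the median of all ratios and 12.4% among common ratios. The share at least 2-fold lower was 10.1% after centring. With the limit set at 1.5-fold, 33.2% were higher and 15.8% lower. A looser limit could only raise these shares, and the shares of all ratios at 1.5-fold are not given here. Counting identical motif entries once gave a median of 0.29 over 387 ratios. The median within 100 bases of the start minus that beyond 400 bases was 0.23. It was 0.21 among common ratios, 0.25 between the outer groups when 3 groups of equal size were formed by position and 0.18 by the last 5' UTR motif. It was 0.34 with the group at 100 to 200 bases in its place, an alternative chosen after seeing the data. The intervals of these differences included 0 except that of the last, 0.07 to 0.84. The joined median was 0.28 without DDX52. Leaving out a replicate could not be done with 1 library per arm. No paired analysis was possible because no result comes from a test and the table gives no values per library. Unknown depth limits every ratio.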
